A study of Mus musculus with 6 samples.

Results

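Aquaporins are channel proteins that let water, and in some members glycerol, cross cell membranes. The members examined here were Aqp1, Aqp2, Aqp3, Aqp4, Aqp5, Aqp6, Aqp7, Aqp8, Aqp9 and Aqp11 of the mouse, chosen by name as water channels of glands and epithelia. All probe sets whose platform annotation gave exactly 1 gene symbol, and that symbol 1 of these 10, were taken, which gave 22 of the 45037 probe sets on the array, for 10 of the 18193 genes it names. RNA came from the olfactory epithelium of pups aged 1 day, on 3 arrays from mutant pups and 3 from wildtype pups that the titles call biological replicates. How many pups gave RNA to an array is not stated. The labels name the first group only as mutant and do not state its allele, and the title of the series names the Krüppel-like factor KLF7 as the factor whose target genes were sought. Pups of both groups had a mixed background of the strains C57Black6/J and 129SvJ. The tissue was profiled whole, so fewer cells of a type and less RNA per cell cannot be told apart in any value below.

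In secretory epithelia, water follows salt through aquaporins of the apical and the basolateral membrane, and so forms the fluid that covers the surface. The olfactory epithelium lies under a mucus layer made by Bowman glands and kept by sustentacular cells, and odorants dissolve in it before they reach the neurons. Aqp5 is known as the apical water channel of salivary, tear and airway glands, Aqp4 as a basolateral channel of airway epithelium and of astrocyte endfeet, Aqp3 as a water and glycerol channel of basal epithelial cells, and Aqp1 as a channel of capillary endothelium and red cells. The other members are best known elsewhere: Aqp2 and Aqp6 in kidney, Aqp7 in fat, Aqp8 in gut and pancreas, Aqp9 in liver, and Aqp11 as a divergent member inside cells.

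KLF proteins are known to bind CACCC elements, so the promoters of 3 members that were measured above the dim level are shown with these letters. Each is the 250 bases before the annotated start, from RefSeq on GRCm38.p6. Capitals mark CACCC, or GGGTG where the element lies on the other strand. Aqp1 lies at chr6:55336049-55336298 (plus strand), Aqp3 at chr4:41098184-41098433 (minus strand) and Aqp5 at chr15:99590778-99591027 (plus strand).
Aqp1: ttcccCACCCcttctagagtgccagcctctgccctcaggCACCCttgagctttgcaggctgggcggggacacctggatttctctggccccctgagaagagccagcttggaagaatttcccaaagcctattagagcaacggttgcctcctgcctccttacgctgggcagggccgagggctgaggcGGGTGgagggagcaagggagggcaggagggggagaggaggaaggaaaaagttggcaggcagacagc
Aqp3: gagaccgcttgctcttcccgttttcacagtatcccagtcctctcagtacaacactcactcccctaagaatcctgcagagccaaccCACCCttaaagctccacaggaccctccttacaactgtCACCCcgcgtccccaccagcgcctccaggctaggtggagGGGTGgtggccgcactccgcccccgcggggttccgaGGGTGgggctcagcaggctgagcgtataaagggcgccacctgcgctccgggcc
Aqp5: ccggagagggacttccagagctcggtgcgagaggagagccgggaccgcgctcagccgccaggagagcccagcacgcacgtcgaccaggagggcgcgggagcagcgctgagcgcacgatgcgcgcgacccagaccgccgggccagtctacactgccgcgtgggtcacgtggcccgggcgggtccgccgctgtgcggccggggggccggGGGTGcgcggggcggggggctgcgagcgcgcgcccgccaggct
The Aqp1 window held 3 matches, that of Aqp3 held 4 and that of Aqp5 held 1. Windows were counted for 9 of the 10 members, with Aqp4 left out, and gave 11 in all. Aqp7 and Aqp9 each gave 2, and those of Aqp7 overlapped. Of the 11, 8 contained the element on either strand, beside 52.0% of all 32851 promoters of the same length. No test compared these shares, and Aqp4 is missing from the first. A match is a description of the letters and not a binding site. The 3 windows also differed in base composition, with a GC content of 62.0% for Aqp1, 64.0% for Aqp3 and 78.4% for Aqp5. Aqp2, Aqp5 and Aqp6 follow each other on chromosome 15, and Aqp7 and Aqp3 are neighbours on chromosome 4, with no other protein-coding gene between them in the RefSeq gene table.

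Deposited intensities summed to between 11056397 and 14439788 on the mutant arrays and between 10064207 and 13320971 on the wildtype arrays. Both arrays numbered 3 stood apart from the other 4 on the first principal component, which carried 50.2% of the variance. Klf7 itself was lower on the mutant arrays on all 4 of its probe sets, with no overlap. The difference on probe set 1419354_at was a log2 difference of -3.06 (SE 0.49), with an adjusted p of 0.00361 over the 4 probe sets in limma and of 0.0656 without both arrays numbered 3. Adjusted over all 45037 probe sets of the array, 0 passed an adjusted p of 0.05 (limma), so no Klf7 probe set did. The defining markers of the labelled tissue were present: Cyp2g1 of sustentacular cells lay between 11.29 and 11.60 on the mutant arrays and between 10.97 and 11.80 on the wildtype arrays (log2 intensity), and Omp of mature olfactory neurons between 7.41 and 8.06 on the mutant arrays and between 7.40 and 8.81 on the wildtype arrays. Of 7 mature neuron genes tested, 6 had a lower mean in mutant and 4 did not overlap (median difference -0.86), with summed intensities of 2807 to 3739 on the mutant arrays and 4755 to 6320 on the wildtype arrays. Their 0 passes after adjustment stood beside 4 at an unadjusted p under 0.05 (limma), and their part in the aquaporin levels was not tested. Over all genes tested, 1.95% did not overlap with mutant lower, and 0.441% were lower at an unadjusted p under 0.05 (limma). Ciliated and fibroblast markers had median differences of 0.18 (6 tested, 5 higher and 1 lower) and 0.07 (5 tested, 4 higher and 1 lower).

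No aquaporin differed between mutant and wildtype past the threshold, an adjusted p of 0.05 (limma on quantile-normalised log2 intensities, two-sided, adjusted over 12703 genes). Aqp1, Aqp3, Aqp4, Aqp5, Aqp6 and Aqp11 had a probe set above the dim level and were tested. Of these 6, 0 passed, and 0 had an unadjusted p under 0.05. Over all genes tested, 0% passed and 0.598% had an unadjusted p under 0.05, 0.157% higher and 0.441% lower in mutant. Means were higher in mutant for 3 of the 6 and lower for 3, with a median log2 difference of -0.16, beside 47.4% higher and a median of -0.02 over all genes tested. The 4 others, Aqp2, Aqp7, Aqp8 and Aqp9, had no probe set above the dim level, a mean of 5.19 on the log2 scale. A p that misses the threshold does not show that the levels were alike, so each difference is given with its interval.

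Over all 22 aquaporin probe sets, dim ones included, 11 had a higher mean in mutant, beside 47.3% of all probe sets. In a fit of all 45037 probe sets, 0 of the 22 had an unadjusted p under 0.05 (limma), against 0.48% of all probe sets higher and 0.591% lower in mutant. The groups did not overlap on 1 of the 22, with mutant higher, against 2.7% of all probe sets, 1.2% with mutant higher and 1.51% with mutant lower. Of the 22, 9 lay above the dim level, 8 were at the floor on 3 or more arrays and 5 were listed at 0 on at least 1 array.

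**Figure D1:**
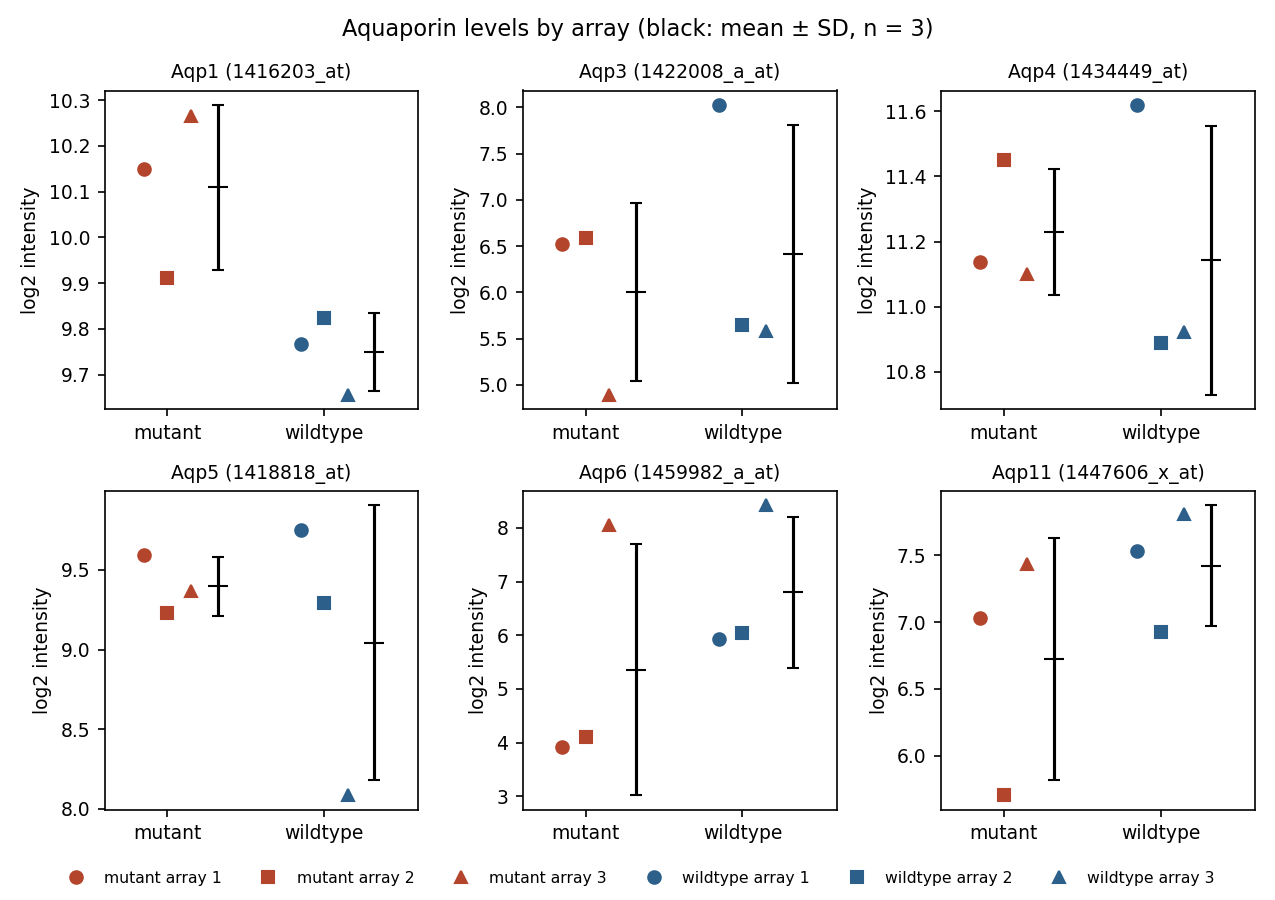
Log2 intensity (quantile normalised) of the 6 tested aquaporin genes on each array, with mutant arrays left of wildtype arrays. Symbols give the array number and black bars the mean ± SD of 3 arrays. The groups of Aqp1 do not overlap, and those of the other 5 do.

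Aqp1, the channel of small vessels and red cells, was the only tested aquaporin whose groups did not overlap. Its log2 intensity was 10.15, 9.91 and 10.27 on mutant arrays 1, 2 and 3, against 9.77, 9.82 and 9.66 on wildtype arrays 1, 2 and 3. All 3 mutant arrays were thus above all 3 wildtype arrays, and the lowest mutant and highest wildtype values lay close together. The means were 10.11 ± 0.18 in mutant and 9.75 ± 0.09 in wildtype (SD, n = 3 each), a log2 difference of 0.36 (SE 0.25) or 1.28-fold. The difference missed the threshold (limma, adjusted p = 1, unadjusted p = 0.172). Its 95% interval ran from 0.88-fold to 1.87-fold, and so included both signs. An exact two-sided permutation test gave p = 0.1, the smallest that 3 arrays against 3 can give. Groups that do not overlap with mutant higher made up 0.905% of all genes tested, those with mutant lower 1.95% and both together 2.86%.

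The gap of Aqp1 depended on the scaling of the arrays. In the deposited intensities the groups did not overlap either, with 1236, 1102 and 1078 on mutant arrays 1, 2 and 3, against 930.6, 974.4 and 627.9 on wildtype arrays 1, 2 and 3. With array medians set equal the groups overlapped, since wildtype array 1 then lay at 10.21, above mutant arrays 2 and 3 at 9.76 and 10.06. The log2 difference remained above 0 in each alternative run, between 0.23 without both arrays numbered 3 and 0.46 without mutant array 2. Fitted among all 45037 probe sets, the same values gave an unadjusted p of 0.0579 and an adjusted p of 1 (limma).

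Markers of the cells that are known to hold Aqp1 were set beside it. Of 10 endothelial genes, 9 were tested, 5 with a higher mean in mutant and 4 lower, with a median log2 difference of 0.04. Without wildtype array 3, 6 of the 9 were higher (median 0.20), and without both arrays numbered 3, 8 of the 9 (median 0.32). Their summed intensity was 1531 to 1959 on the mutant arrays and 1351 to 2036 on the wildtype arrays. Egfl7, a secreted protein of vessels, differed by 0.82 (SE 0.45), and Pecam1 differed by 0.18 (SE 0.86). Of 10 erythroid genes, 6 were measured and 2 tested. Epb42 differed by -0.53 (SE 0.94). Alas2, the first enzyme of red cell haem synthesis, differed by 0.63 (SE 0.69) with groups that did not overlap. The gap was narrow, from 5.42 on wildtype array 3 to 5.43 on mutant array 2, near the dim level of 5.19. Non-overlap with mutant higher was found for 0.905% of all genes tested. The erythroid sum was 157 to 279 on the mutant arrays and 115 to 390 on the wildtype arrays. Of 5 choroid plexus genes, 3 were tested, with a median of 0.15, and Ttr, its defining secreted protein, differed by 0.18 (SE 0.71). None of these genes passed the threshold, and their part in the level of Aqp1 was not tested.

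Aqp4 showed the narrowest interval of the 6. Probe set 1434449_at had log2 intensities of 11.14, 11.45 and 11.10 on mutant arrays 1, 2 and 3, against 11.62, 10.89 and 10.92 on wildtype arrays 1, 2 and 3. The highest value of all was wildtype array 1 and the lowest wildtype array 2, so the mutant values lay inside the wildtype range. The means were 11.23 ± 0.19 in mutant and 11.14 ± 0.41 in wildtype (SD, n = 3 each), a difference of 0.09 (SE 0.23; limma, adjusted p = 1). The 95% interval ran from 0.74-fold to 1.52-fold. Aqp4 and Aqp1 also varied little among all 6 arrays. From the lowest to the highest array they spanned 0.73 and 0.61 on the log2 scale, against a median span of 1.41 over all genes tested. That median takes in genes near the dim level, and spans were not compared among genes of like intensity.

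The second Aqp4 probe set above the dim level, 1425382_a_at, lay at 7.11, 6.58 and 5.88 on mutant arrays 1, 2 and 3, against 7.91, 6.26 and 5.87 on wildtype arrays 1, 2 and 3. It too was highest on wildtype array 1, and it differed by -0.16 (SE 0.68). The third, 1447745_at, was dim and at the floor on 3 arrays. The genes that hold Aqp4 at membranes, the dystrophin complex, were tested for 8 of 9 listed members. Means were higher in mutant for 5 and lower for 3, with a median difference of 0.10 and 0 past the threshold or at an unadjusted p under 0.05 (limma). Utrn (utrophin) differed by 0.24 (SE 0.23) and Dtnb (dystrobrevin beta) by 0.40 (SE 0.56).

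Aqp4 is also a channel of astrocytes and of fast muscle, which a dissection can carry along. Of 7 glial genes, 5 were tested, with a median difference of -0.22 and a summed intensity of 1508 to 1770 on the mutant arrays and 1373 to 1777 on the wildtype arrays. Gfap, the filament of astrocytes, was dim, and Slc1a2, their glutamate transporter, ran from 4.86 to 8.74 on the mutant arrays and from 5.89 to 7.84 on the wildtype arrays. Of 9 skeletal muscle genes, 2 were tested, Ckm at 0.31 (SE 0.54) and Tnni2 at -0.52 (SE 0.70). The muscle sum was 271 to 370 on the mutant arrays and 260 to 789 on the wildtype arrays, and Acta1 was dim. Slc1a2 was highest on mutant array 2 and Aqp4 on wildtype array 1. Of 7 sustentacular genes tested, 3 were highest on wildtype array 1 too, beside 17.9% of all genes tested. The part of these cells in the Aqp4 level was not tested.

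Aqp5, the apical channel of gland acini, had log2 intensities of 9.60, 9.23 and 9.37 on mutant arrays 1, 2 and 3, against 9.75, 9.29 and 8.09 on wildtype arrays 1, 2 and 3. Wildtype array 3 stood below the other 5 arrays, which lay close together, and the groups overlapped. The means were 9.40 ± 0.19 in mutant and 9.04 ± 0.86 in wildtype (SD, n = 3 each), a difference of 0.35 (SE 0.42; limma, adjusted p = 1), with a 95% interval from 0.68-fold to 2.41-fold. The difference was -0.12 without wildtype array 3 and -0.11 without both arrays numbered 3. Between the mutant and the wildtype array numbered 1, 2 and 3 it was -0.16, -0.06 and 1.29.

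Gland, sustentacular and ciliated markers were low on the same wildtype array 3. Of 19 gland genes, 14 were tested, and 11 of the 14 were lowest on that array, as were 5 of 7 sustentacular and 5 of 6 ciliated genes, beside 28.6% of all genes tested. The median log2 intensity of the gland list was 9.34, 8.80 and 9.28 on mutant arrays 1, 2 and 3, against 8.92, 9.47 and 8.33 on wildtype arrays 1, 2 and 3. That of the sustentacular list was 11.29, 11.56 and 11.04 on mutant arrays 1, 2 and 3, against 11.39, 11.01 and 9.74 on wildtype arrays 1, 2 and 3. The ciliated sum was 1432 to 1868 on the mutant arrays, and 1390, 1775 and 863 on wildtype arrays 1, 2 and 3. The gland sum was 24691 to 26135 on the mutant arrays and 19482 to 27510 on the wildtype arrays, and the sustentacular sum 13405 to 14881 on the mutant arrays and 9947 to 15367 on the wildtype arrays. The mucins Muc5b and Muc5ac differed by 0.29 (SE 0.32) and 0.74 (SE 0.57), the antimicrobial Ltf by 0.27 (SE 0.20), and the lipocalin Lcn3 by 0.41 (SE 0.38). In the sustentacular list Sec14l3 and Ermn differed by 0.58 (SE 0.37) and 0.60 (SE 0.59). Means were higher in mutant for 12 of the 14 gland genes (median 0.28) and for 6 of the 7 sustentacular genes (median 0.22), with 0 past the threshold or at an unadjusted p under 0.05 (limma). These counts rested on wildtype array 3. Without it, 7 of the 14 gland genes (median -0.0085) and 2 of the 7 sustentacular genes (median -0.12) had a higher mean in mutant. Without both arrays numbered 3 the counts were 7 of 14 (median -0.0011) and 4 of 7 (median 0.039). The part of gland, sustentacular or ciliated content in the Aqp5 level was not tested.

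**Figure D2:**
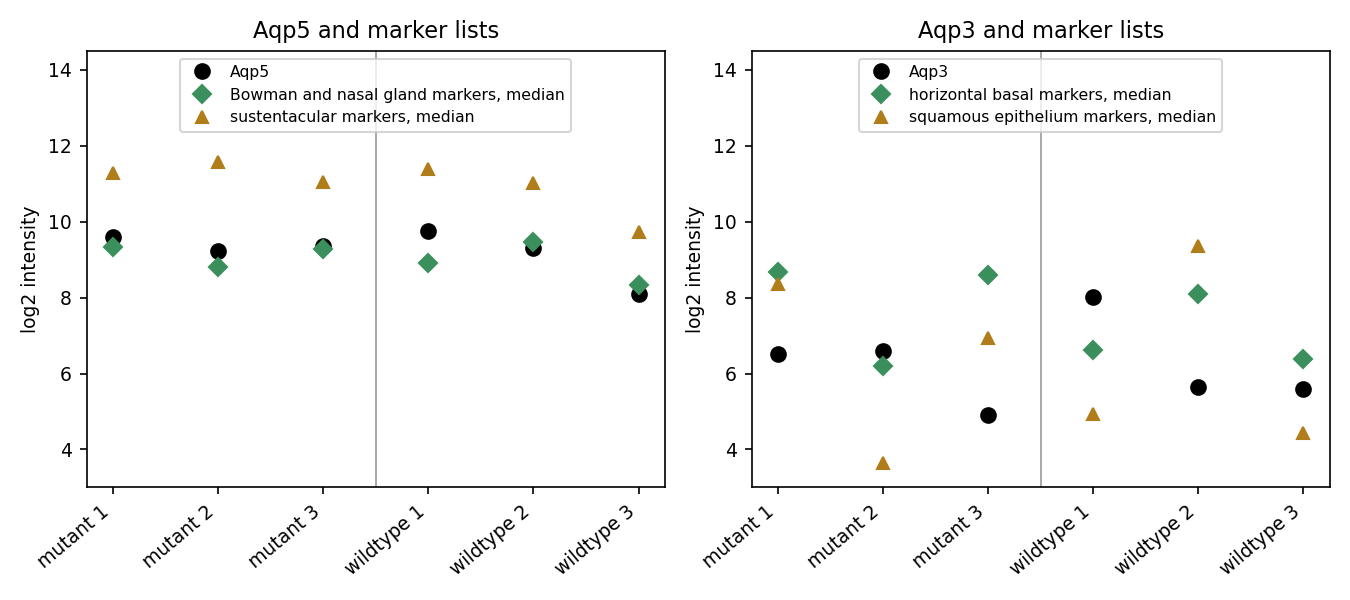
Log2 intensity by array of Aqp5 with the median of gland and of sustentacular markers (left panel), and of Aqp3 with the median of horizontal basal and of squamous markers (right panel), mutant arrays left of the line and wildtype arrays right of it. Aqp5 and both of its marker lists are lowest on wildtype array 3. Aqp3 is highest on wildtype array 1, while the squamous median is highest on wildtype array 2. Only the order of arrays within a symbol is meant to be read.

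Aqp3, a water and glycerol channel, varied widely from array to array. Probe set 1422008_a_at lay at 6.53, 6.59 and 4.89 on mutant arrays 1, 2 and 3, against 8.03, 5.65 and 5.58 on wildtype arrays 1, 2 and 3. Wildtype array 1 was high and mutant array 3 low, and the groups overlapped. The means were 6.003 ± 0.96 in mutant and 6.42 ± 1.39 in wildtype (SD, n = 3 each), a difference of -0.42 (SE 0.82; limma, adjusted p = 1), with a 95% interval from 0.21-fold to 2.64-fold. The sign rested on single arrays: the difference was 0.37 without wildtype array 1 and 0.15 without mutant array 3.

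Of the 4 probe sets of Aqp3, 3 were highest on wildtype array 1 and 1 was lowest there. Probe set 1450460_at lay at 6.15, 5.72 and 5.93 on mutant arrays 1, 2 and 3, against 6.84, 5.39 and 5.38 on wildtype arrays 1, 2 and 3, and differed by 0.06 (SE 0.62). Probe set 1422007_at, which was dim, lay at 4.58, 4.81 and 4.23 on mutant arrays 1, 2 and 3, against 5.85, the floor and 4.28 on wildtype arrays 1, 2 and 3, and differed by -0.05 (SE 0.63). Probe set 1447727_at ran the other way, at 5.30, 4.81 and 6.82 on mutant arrays 1, 2 and 3, against 4.27, 4.90 and 7.32 on wildtype arrays 1, 2 and 3. It was lowest on wildtype array 1 and highest on both arrays numbered 3. It differed by 0.15 (SE 1.05).

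Markers of basal and squamous epithelium, where Aqp3 is known to be abundant, were set beside it. Squamous markers had median log2 intensities of 8.37, 3.65 and 6.94 on mutant arrays 1, 2 and 3, against 4.95, 9.37 and 4.42 on wildtype arrays 1, 2 and 3. Of 9 squamous genes tested, 8 were highest on wildtype array 2 and 0 on wildtype array 1, where Aqp3 was highest. The squamous sum was 330 to 2958 on the mutant arrays and 431 to 6785 on the wildtype arrays, and Krt13, a defining keratin, was listed at 0 on mutant array 2 and wildtype array 1. Its other defining keratin, Krt4, differed by -0.12 (SE 1.40), and Krt10 by -1.18 (SE 0.62) with groups that did not overlap. Non-overlap with mutant lower was found for 1.95% of all genes tested. Horizontal basal markers were highest on wildtype array 2 for 4 of 8 tested and on wildtype array 1 for 0. Their sum was 3455 to 6514 on the mutant arrays and 1894 to 6031 on the wildtype arrays, with Krt5 at 0.36 (SE 0.55), Krt14 at 0.16 (SE 0.66) and Trp63, a stem cell factor, at 0.50 (SE 0.31). Median differences were -0.04 for squamous and 0.38 for basal genes, and no gene of either list passed the threshold. Without both arrays numbered 3 the medians were -1.13 for squamous genes, with 9 of 9 lower in mutant, and -0.11 for basal genes, with 5 of 8 lower. The part of these cells in the Aqp3 level was not tested.

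Aqp6, a channel of intracellular vesicles in kidney, had the largest difference in size among the 6. Probe set 1459982_a_at lay at 3.91, 4.11 and 8.06 on mutant arrays 1, 2 and 3, against 5.93, 6.05 and 8.42 on wildtype arrays 1, 2 and 3. Both arrays numbered 3 were far above the other 4, and the groups overlapped through mutant array 3. The means were 5.36 ± 2.34 in mutant and 6.80 ± 1.40 in wildtype (SD, n = 3 each), a difference of -1.44 (SE 1.12; limma, adjusted p = 1), with a 95% interval from 0.067-fold to 2.03-fold. Between the mutant and the wildtype array numbered 1, 2 and 3 the difference was -2.02, -1.94 and -0.36. Without mutant array 3 it was -2.81. Without both arrays numbered 3 Aqp6 fell below the dim level and was not tested.

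The other 3 Aqp6 probe sets were dim. Probe set 1447974_s_at, whose suffix in the manufacturer's naming marks probes shared between transcripts, was also highest on the arrays numbered 3, at 6.28 in mutant and 6.51 in wildtype, and at the floor on 3 of the other 4 arrays. It differed by -0.31 (SE 1.07). Probe sets 1420035_at and 1441978_at stayed between the floor of 3.65 and 4.69 on all 6 arrays. Both arrays numbered 3 were above the other 4 arrays for 6 of the 22 aquaporin probe sets, and for 18.7% of all probe sets. These 6 were probe sets of Aqp3, Aqp6, Aqp7, Aqp8 and Aqp9, and 4 of them were dim. Both arrays numbered 3 were below the other 4 for 2 of the 22 and for 14.2% of all probe sets. These 2 were 1422008_a_at of Aqp3 and 1425382_a_at of Aqp4.

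Aqp11, a divergent member of the endoplasmic reticulum whose loss gives polycystic kidneys in mice, was read in opposite directions by its probe sets. Probe set 1447606_x_at lay at 7.03, 5.71 and 7.43 on mutant arrays 1, 2 and 3, against 7.53, 6.92 and 7.81 on wildtype arrays 1, 2 and 3. Mutant array 2 was low, and the groups overlapped. The means were 6.72 ± 0.90 in mutant and 7.42 ± 0.45 in wildtype (SD, n = 3 each), a difference of -0.70 (SE 0.59; limma, adjusted p = 1), with a 95% interval from 0.25-fold to 1.52-fold, and of -0.19 without mutant array 2. The suffix of this probe set marks probes that may also bind other sequences.

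The dim probe set 1429254_at of Aqp11 lay at 5.17, 5.67 and 5.47 on the mutant arrays, against 5.85, 4.79 and the floor on wildtype arrays 1, 2 and 3. It differed by 0.67 (SE 0.71), the opposite sign, by 0.12 without wildtype array 3, which was at the floor, and by 0.098 without both arrays numbered 3. Mutant array 2 was its highest mutant array and the lowest array of 1447606_x_at. The third probe set, 1455846_at, was at the floor on 4 arrays. Averaged over its 3 probe sets, of which 2 were dim, Aqp11 differed by 0.013. Between the mutant and the wildtype array numbered 1, 2 and 3 the brightest probe set differed by -0.50, -1.22 and -0.37.

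**Figure D3:**
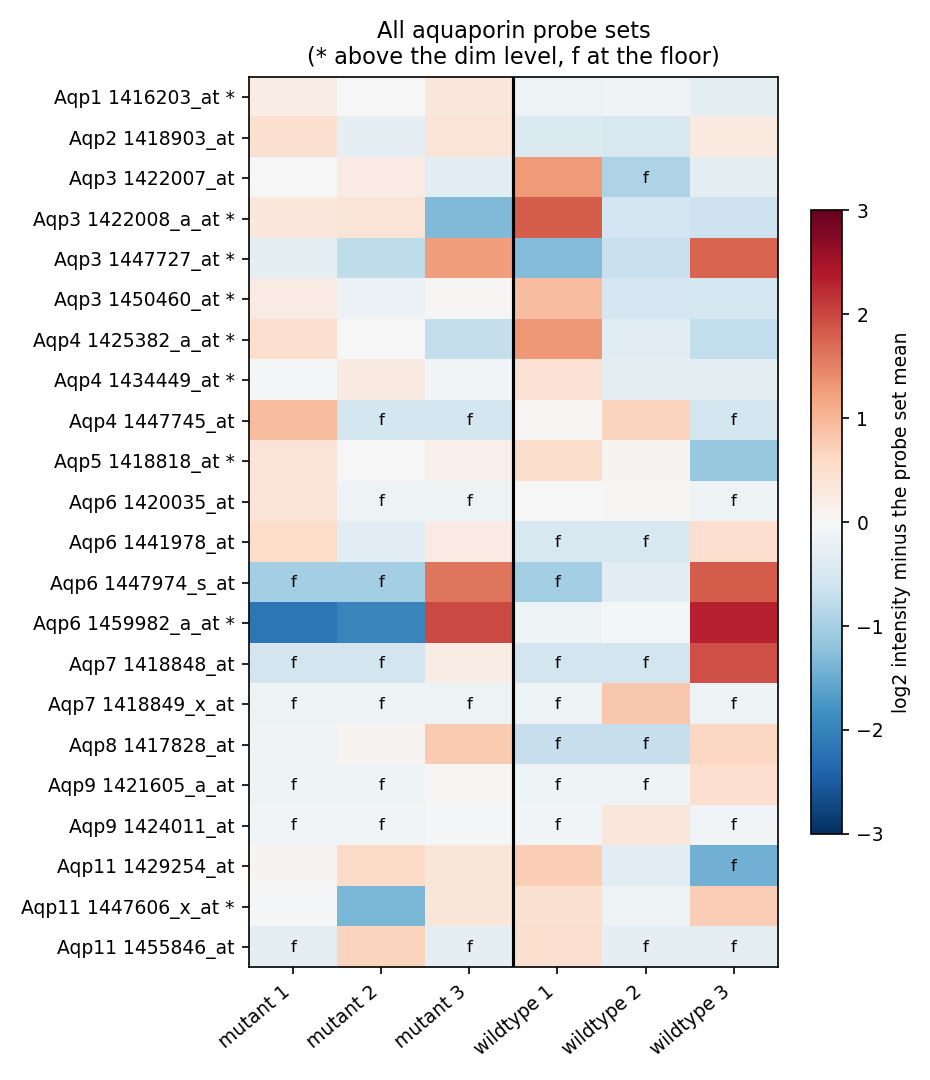
Log2 intensity minus the mean of each row for all 22 aquaporin probe sets (rows) on the 6 arrays (columns), mutant arrays left of the line. An asterisk marks the 9 probe sets above the dim level and f a value at the floor. Among others, 2 probe sets of Aqp6 and 1 of Aqp3 are high on both arrays numbered 3, and 3 of Aqp3 and 1 of Aqp4 are high on wildtype array 1.

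Aqp2, Aqp7, Aqp8 and Aqp9 were dim in this tissue, so values near the floor set what can be said of them. Aqp2, the vasopressin-regulated channel of the collecting duct, lay at 5.26, 4.52 and 5.18 on the mutant arrays, against 4.36, 4.31 and 5.09 on the wildtype arrays, with a difference of 0.40 (SE 0.46) that ran from 0.26 to 0.65 when single arrays were left out. Aqp8, which passes water and ammonia, lay at 4.23, 4.43 and 5.13 on the mutant arrays, and at the floor on wildtype arrays 1 and 2 and at 4.97 on wildtype array 3. Both groups overlapped for each gene, and neither probe set had an unadjusted p under 0.05 when all 45037 probe sets were fitted (limma). Over that fit, 0% of probe sets passed the threshold and 1.07% had an unadjusted p under 0.05.

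Aqp7, the glycerol channel of fat cells, was at the floor on 4 arrays by probe set 1418848_at and on 5 by 1418849_x_at. The first reached 4.43 on mutant array 3 and 6.14 on wildtype array 3. Fabp4, a fatty acid carrier of fat cells and some vessels, was high on the same arrays. It lay at 8.56 on mutant array 3 and 9.79 on wildtype array 3, against 3.65 to 6.14 on the other 4. Such a pattern, with both arrays numbered 3 above the other 4, was found for 18.7% of all probe sets. Of 8 adipocyte genes, 6 were measured and 2 tested, with a sum of 128 to 558 on the mutant arrays and 159 to 1097 on the wildtype arrays. Adipoq was dim, and the part of fat in the Aqp7 signal was not tested.

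Aqp9, a channel for water, glycerol and other small solutes, was at the floor on 4 arrays by each of its probe sets and did not exceed 4.28. It is also a channel of neutrophils. Of their listed genes, the defining S100a8 and S100a9 were well above the dim level, while Ngp, Mpo and Elane were dim. S100a8 ran from 8.66 to 10.39 on the mutant arrays and from 8.72 to 10.46 on the wildtype arrays. Of 9 neutrophil genes, 6 were measured and 3 tested, all with a higher mean in mutant (median 0.08). The median was 0.57 without wildtype array 3 and 0.16 without both arrays numbered 3. Their sum was 1060 to 2492 on the mutant arrays and 977 to 2658 on the wildtype arrays. Mip, the lens channel, and Aqp12, both of the same family, were dim as well.

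**Figure D4:**
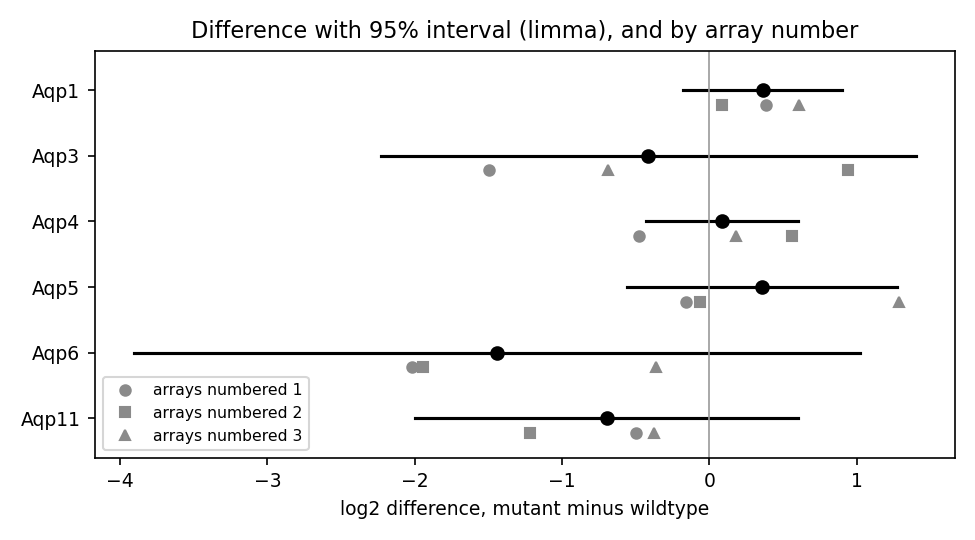
Log2 difference, mutant minus wildtype, of the 6 tested aquaporins with 95% intervals from limma (black), and the difference between the mutant and the wildtype array of each number (grey). Every interval includes 0. The intervals of Aqp1 and Aqp4 are the narrowest and that of Aqp6 the widest.

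No gene that works with aquaporins in fluid transport passed the threshold. Of 26 genes of fluid secretion, 16 were tested, with means higher in mutant for 11 and lower for 5, a median difference of 0.10 and 0 past the threshold or at an unadjusted p under 0.05 (limma). Kcnma1, a calcium-gated potassium channel, differed by 0.45 (SE 0.30), the potassium channel subunit Kcne3 by 0.56 (SE 0.45), the calcium sensor Stim1 by -0.64 (SE 0.71) and the chloride channel Ano1 by 0.11 (SE 0.18). Of 10 genes of sodium absorption, 8 were tested, with 3 higher and 5 lower, a median of -0.12 and 0 past the threshold. Sgk1, a kinase that raises sodium uptake, differed by 0.27 (SE 0.19). Of 10 genes of glycerol handling, which bears on Aqp3, Aqp7 and Aqp9, 7 were tested, with 4 higher and 3 lower and a median of 0.13. Of 10 genes of cell volume control, 8 were tested, with 2 higher and 6 lower and a median of -0.06. The sodium transporter of inositol Slc5a3 differed by -0.20 (SE 0.35) and the volume-sensing kinase Wnk1 by 0.11 (SE 0.19). The balance of these lists moved with the arrays used. Without wildtype array 3, 7 of 16 secretion genes, 1 of 7 glycerol genes and 5 of 8 volume genes were higher in mutant (medians -0.03, -0.06 and 0.02). Without both arrays numbered 3, 12 of 16, 1 of 7 and 6 of 8 were higher (medians 0.07, -0.43 and 0.09).

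Across the 6 arrays, the genes tested whose centred log2 profiles lay nearest to an aquaporin were found by the root mean square difference, for the 4 members that spanned at least 1 on the log2 scale. Nearest to Aqp5 were Lrrn3, Crnkl1 and Mrpl54, at 0.066, 0.069 and 0.087, against a median of 0.66 over all genes. Nearest to Aqp11 were Dmxl1, Ino80e and Ifi47, at 0.10, 0.11 and 0.13, against a median of 0.79. Nearest to Aqp3 were Slc16a7, Suv39h2 and Stap1, at 0.27, 0.28 and 0.28, against a median of 1.09. Nearest to Aqp6 was Hand1 at 0.29, followed by Iapp and Sarm1 at 0.57 each, against a median of 1.80. The profiles rest on 6 arrays and were sought among 12703 genes, so near profiles are a description of these arrays only.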

How the data were processed

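RNA of olfactory epithelium from mutant and wildtype pups was measured on 3 arrays each, with groups and replicate numbers read from the sample titles. Per the labels' protocols, total RNA was amplified and carried a biotin label. The authors deposited linear intensity values, 1 for each probe set on each array. Their background correction, probe summary and scaling are not given in the sources used here. No detection call was used, so a dim probe set does not show that its gene was absent. The number of arrays limits the precision. Array quartiles differed by 0.54 to 0.69 (log2). Quantile normalisation was therefore applied, values under the 20th percentile (12.56, or 3.65 after log2) were set to it, and log2 was taken, which understates differences near that floor.

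Gene names are those of the platform annotation, in which 34945 probe sets have 1 symbol, 932 several and 9160 none. Updating through the RefSeq gene table changed 0 symbols. A gene was represented by its brightest probe set with 1 symbol. Those with a mean among the lowest 40% were called dim and left out, so that 12703 of 18193 genes were tested. The test was that of limma 3.58.1 (R 4.3.3) with a variance trend, two-sided, adjusted by Benjamini and Hochberg. A further fit held all 45037 probe sets. The scripts were tested on simulated data. Alternatives concerned scaling, floor, dim filter, variance model, probe set choice, threshold and arrays; leaving out wildtype array 3 or both arrays numbered 3 for the gene lists was chosen after seeing the data.

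The titles do not state that arrays of the same number form pairs, and the main fit did not use the numbers. They served only for the differences by array number and for an alternative fit with the number as a block. Across genes, deviations from the group means gave r of 0.47, 0.18 and 0.56 for same-numbered arrays 1, 2 and 3. Such deviations cancel within a group, so the r values of same and of different numbers are not independent. Differently numbered arrays gave r of -0.47 to 0.22, and wildtype array 2 correlated more with mutant array 1 (0.22) than with its own number.

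The members and gene lists were chosen with earlier results of these data known. Of 195 listed genes, 174 were measured and 129 tested. The rule for names took all members, Klf7, the first 2 markers of a cell type list, up to 4 genes of a list with the smallest p, and the 3 nearest profiles.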

Additional observations from a re-analysis of the deposited data

How the results depend on the processing

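No aquaporin passed an adjusted p of 0.05 (limma) under any of the scalings, floors, dim filters, variance models, probe set choices or sets of arrays tried, and 0 of all genes did; with an unadjusted p under 0.05 as the threshold, 76 genes were called and 0 aquaporins. The numbers of genes at an unadjusted p under 0.05 ran from 43 with array medians set equal to 191 with no dim filter, and from 67 to 212 when single arrays were left out. With the replicate number as a block, no call changed: limma called 0 genes, 157 had an unadjusted p under 0.05, and Aqp6 (difference -1.44) was the only aquaporin among them, at 0.023 with an adjusted p of 1.

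The difference of Aqp1 kept its sign in all 18 alternatives. Aqp4 turned to -0.092 with array weights and -0.057 with the mean of its probe sets, Aqp11 to 0.013 with that mean, and Aqp5 to -0.11 without both arrays numbered 3. With single arrays left out, Aqp3 ran from -0.85 to 0.37, Aqp4 from -0.037 to 0.32 and Aqp5 from -0.12 to 0.70. Aqp6 ran from -2.81 to -0.61 and Aqp11 from -1.07 to -0.19, each without a change of sign. Aqp3 and Aqp6 fell below a dim filter at the lowest 60%. Aqp6 also fell below the main dim filter, at the lowest 40%, without both arrays numbered 3 or with the mean of its probe sets. These runs gave no value for them.

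Among the other probe sets, whose levels lie near the floor or whose differences are near 0, the sign turned as follows. With the floor at the 10th percentile, 1420035_at of Aqp6 was at -0.22, 1422007_at of Aqp3 at 0.15, 1424011_at of Aqp9 at 0.055 and 1455846_at of Aqp11 at -0.23. With no floor and 16 added, 1420035_at was at -0.067, 1424011_at at 0.032 and 1455846_at at -0.13; with the floor at the 30th percentile, 1447745_at of Aqp4 was at 0.094. With array weights, 1447745_at was at 0.0062, 1447974_s_at of Aqp6 at 0.094, 1450460_at of Aqp3 at -0.12 and 1455846_at at -0.17. With no scaling, 1422007_at was at 0.02, and without both arrays numbered 3, 1450460_at was at -0.20. With single arrays left out, the ranges were -0.53 to 0.58 for 1422007_at, -0.46 to 1.07 for 1447727_at, -0.19 to 0.54 for 1450460_at, -0.58 to 0.45 for 1425382_a_at, -0.61 to 0.21 for 1447745_at, -0.12 to 0.155 for 1420035_at, -1.19 to 0.54 for 1447974_s_at, -0.99 to 0.25 for 1418848_at, -0.27 to 0.051 for 1421605_a_at, -0.20 to 0.0079 for 1424011_at and -0.26 to 0.32 for 1455846_at. The cause of these turns was not tested. Without both arrays numbered 3, 1418848_at and 1421605_a_at lay at the floor on all arrays and gave no value. The same held for 1420035_at, 1421605_a_at and 1424011_at with the floor at the 30th percentile, and for 1418849_x_at of Aqp7 without wildtype array 2. The groups of no aquaporin were apart with array medians set equal. Those of Aqp1 and Aqp4 were apart without wildtype array 1, and those of Aqp1 and Aqp11 without wildtype array 2. Those of Aqp1 and Aqp6 were apart without mutant array 3. There Aqp6 also had an unadjusted p under 0.05 (limma), as had 85 of 12644 genes tested. The share of all genes with groups apart was not counted for these runs, and groups of fewer arrays come apart more readily.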
